A study of Bos taurus with 10 samples.

Results

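The HSP70 and HSP110 chaperone family was described here in bovine (Bos taurus) oviductal organoids through 10 genes, namely HSPA1A, HSPA1L, HSPA2, HSPA4, HSPA4L, HSPA6, HSPA8, HSPA9, HSPA13 and HSPH1. The members were chosen by gene symbol, and all 10 were found among the 26804 genes of the deposited table. The organoids, 3-dimensional cultures grown from epithelial cells of the oviduct, were kept at 37 °C (thermoneutral) throughout or moved to 42 °C for the last day of culture as the HS (heat stress) group. Each temperature had 5 RNA libraries, A to E, whose names here join both, as in 42C A. Oviducts of 2 animals, from diestrus reproductive tracts of a slaughterhouse, were pooled for a replicate, and the same oviducts were used at both temperatures. No genetic change or other agent separated the groups, and the age of the animals is not given in the sources used here. The question of the comparison was how oviductal organoids respond to HS, here read in the genes of a chaperone family.

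HSP70 proteins bind short hydrophobic stretches of unfolded proteins and release them in a cycle of ATP binding and hydrolysis. J-domain co-chaperones bring the client and start hydrolysis, and nucleotide exchange factors, among them the HSP110 proteins, which are distant relatives of HSP70, remove ADP so that the client is let go. Some family genes are transcribed in nearly every cell, while others are switched on by heat shock factor 1 when unfolded proteins build up.

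Values are TPM, that is, reads corrected for transcript length and given as a share of the library, so that levels of different genes can be set side by side. Each library summed to 1000000 TPM, and the number of reads behind a value is unknown from these values, so no counting interval can be given. The test compared 37C A to E with 42C A, C, D and E on the log2(TPM + 1) scale with limma, and a gene was called at a Benjamini-Hochberg adjusted p below 0.05 over all 12149 genes tested and a log2 difference of at least 1 in size. Library 42C B was left out of the test, since the study set 1 HS replicate aside. The study does not name that replicate, but its HS mean of HSPA1A, 4367 TPM, is the mean of 42C A, C, D and E. The values of 42C B are given for every member. The first principal component of all genes held 58.9% of the variance. On it the 37 °C libraries lay between -49.5 and -43.5, and 42C C, D and E between 51.2 and 55.9. Library 42C B was at 72.2 and 42C A at 2.17. On the second component, which held 22.8%, 42C B stood apart at -78.1. There 42C A, C, D and E lay between 22.2 and 32.8, and the 37 °C libraries between -15.8 and 8.46. Of 9 epithelial markers, 8 reached 1 TPM, while OVGP1, the oviduct-specific glycoprotein, stayed under 1 TPM in every library. The summed epithelial markers stood at 10414 to 13511 TPM at 37 °C and at 4372 (42C B) to 9722 TPM (42C A) at 42 °C. The keratins KRT8, KRT18 and KRT19 made up most of this sum. Over the libraries in the test they had lower means at 42 °C (KRT19 5248 against 1904 TPM). FOXJ1 also had a lower mean (21.6 against 12.7 TPM), with overlapping groups. In contrast, EPCAM (657 against 1033 TPM), CDH1 (201 against 396 TPM), CLDN4 (128 against 324 TPM) and PAX8 (75.2 against 88.7 TPM) had higher means over the libraries in the test. In 42C B, however, EPCAM (507 TPM), CDH1 (175 TPM) and PAX8 (62.1 TPM) were below every 37 °C library, while CLDN4 was at 545 TPM. All 5 fibroblast markers and all 5 leukocyte markers were under 1 TPM in every library, with sums of 0.0663 to 1.39 TPM and 0 to 0.171 TPM at 37 °C and of 0.624 to 0.822 TPM and 0 to 0.245 TPM at 42 °C, and the leukocyte markers CSF1R and ITGAM were listed at 0 throughout. Of 4 endothelial markers 2 were under 1 TPM, and the list summed to 11.7 to 17.1 TPM at 37 °C and to 4.88 (42C B) to 13.2 TPM (42C A) at 42 °C. Of the rest, KDR had a lower mean at 42 °C over the libraries in the test (13.5 against 8.54 TPM). VWF had a higher one (1.34 against 2.95 TPM), and its groups did not overlap. The part of cell composition in the results below was not tested, and in bulk RNA fewer cells of a type and less RNA per cell cannot be told apart.

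All 10 members passed the filter on low values, and 6 of them (HSPA1A, HSPA6, HSPH1, HSPA4, HSPA4L and HSPA13) were called higher at 42 °C and 0 lower, where 15.8% of all genes tested were called higher, 7.14% lower and 22.9% in either direction. By the adjusted p alone 9 of 10 members were higher, where 45.1% of all genes were, and HSPA8, HSPA2 and HSPA1L passed it with differences under the fold threshold. HSPA9, the mitochondrial member, did not pass. In 8 of 10 members every 42 °C library in the test was above every 37 °C library, which held for 36.6% of all genes (the reverse order held for 12.3%), and the 8 members also did not overlap with 42C B included. The median difference of the members was 1.39 on the log2 scale, and that of all genes tested was 0.30.

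**Figure D1:**
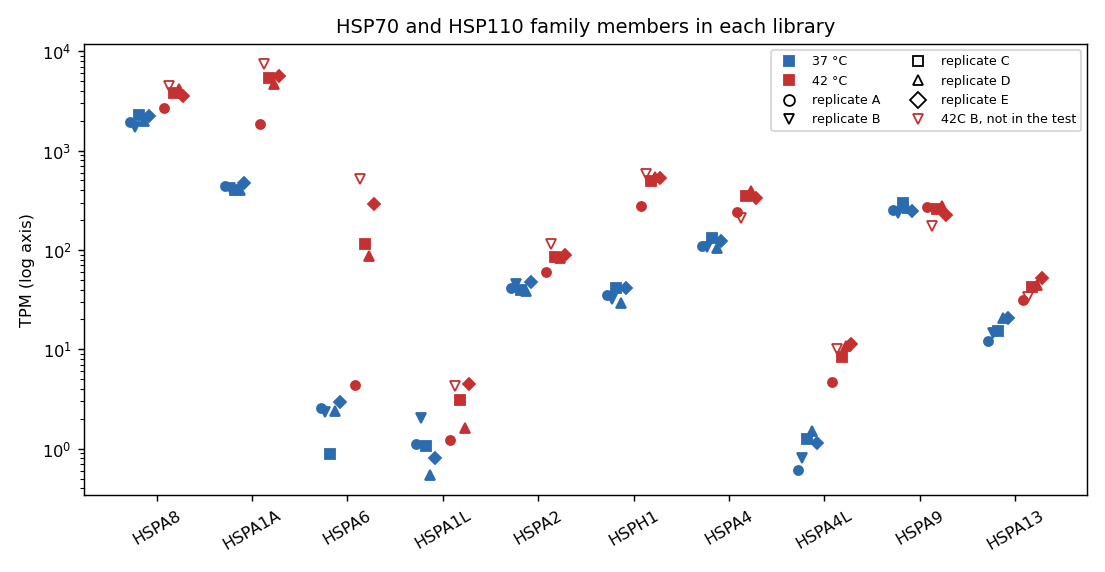
TPM on a log axis of each member in the 5 libraries at 37 °C (blue) and the 5 at 42 °C (red), with the replicate letter shown by the symbol and 42C B, which was not in the test, as an open symbol. HSPA1A stands between 402 and 476 TPM at 37 °C and between 1830 and 7333 TPM at 42 °C, while the symbols of HSPA9 and HSPA1L overlap between temperatures.

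The stress-inducible cytosolic members showed the widest range of levels. HSPA1A (ENSBTAG00000025441), the main HSP70 that cells make on heat shock, was at 441.7, 422.2, 405.5, 402.4 and 475.8 TPM in 37C A to E. At 42 °C it was at 1830 TPM in A, 7333 in B, 5409 in C, 4615 in D and 5614 in E. The lowest HS library was thus 3.85 times the highest thermoneutral one, and the groups were far apart in all letters. Its mean of 429.5 ± 30.2 TPM in the thermoneutral group (SD, n = 5) compared with 4367 ± 1745 TPM in the HS group (SD, n = 4), 10.2 times as high. The log2 difference was 3.22 (SE 0.275, 95% interval 2.62 to 3.82, limma adjusted p = 1.61e-05), the 15th largest rise of the 12149 genes tested. By level, HSPA1A went from rank 310 to 377 among all genes of a library at 37 °C to rank 72 in 42C A and to ranks 9 to 14 in the other 4 HS libraries.

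HSPA6 (ENSBTAG00000039035), which in humans is an HSP70 made almost only under stress, was low at 37 °C, with 2.56, 2.32, 0.885, 2.41 and 2.93 TPM in A to E. At 42 °C it was at 4.33 TPM in A, 512 in B, 116 in C, 87.8 in D and 288 in E. The groups did not overlap, but 42C A was only 1.48 times the highest 37 °C library, and the highest HS library held 118 times the level of the lowest. No other member spread so far within a temperature, the next being HSPA1A with a ratio of 4.01 between HS libraries. The log2 difference was 4.34 (SE 0.88, 95% interval 2.42 to 6.26, limma adjusted p = 0.00123), the largest of the family and the 4th largest of all genes. This size rested on single libraries, as leaving out 42C A gave 5.53 and leaving out 42C E gave 3.61, with the adjusted p between 3.05e-07 and 0.00512 over the alternatives.

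HSPA6 also did not keep a fixed ratio to HSPA1A. Per length, it stood at 0.218 to 0.616% of the HSPA1A level at 37 °C. The ratio was 0.237% in 42C A, within the 37 °C range, and 2.14% in C, 1.90% in D, 5.12% in E and 6.98% in B.

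HSPA1L (ENSBTAG00000025442), an HSP70 found mostly in the testis in humans, was low at both temperatures, with 1.11, 2.03, 1.06, 0.549 and 0.807 TPM in 37C A to E. In 42C A to E it was at 1.22, 4.29, 3.07, 1.63 and 4.53 TPM. The groups overlapped, since 42C A and D lay below 37C B. The log2 difference of 0.72 (SE 0.29, 95% interval 0.08 to 1.36, limma adjusted p = 0.0483) was under the fold threshold, and the adjusted p, at most 0.157, did not pass in 11 of 19 alternatives. In the RefSeq annotation (ARS-UCD2.0, a newer build than that of the files) HSPA1L is the next gene to HSPA1A, whose synonyms there include HSPA1B. HSPA1A and HSPA1B are near-identical copies in mammals and HSPA1L is a close relative, and how reads were divided among such genes was not tested. HSPA1L was at 0.136 to 0.481% of the HSPA1A level at 37 °C and at 0.0352 to 0.0806% at 42 °C.

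HSPA8 and HSPA2 passed the p threshold with differences under the fold threshold. HSPA8 (ENSBTAG00000013162), the HSC70 that serves folding, clathrin uncoating and chaperone-mediated autophagy in unstressed cells, was at 1940, 1740, 2283, 1967 and 2216 TPM in 37C A to E. In 42C A to E it was at 2649, 4487, 3787, 4184 and 3505 TPM. Every HS library was above every thermoneutral one, with 42C A 1.16 times the highest of them. The mean went from 2029 ± 221 TPM (SD, n = 5) to 3531 ± 651 TPM (SD, n = 4), a ratio of 1.74, and the log2 difference of 0.79 (SE 0.14, 95% interval 0.48 to 1.09, limma adjusted p = 0.000568) passed the p threshold but not the fold threshold. Its percentile among the differences of all genes was 74.7, against 99.9 for HSPA1A.

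HSPA2 (ENSBTAG00000007807), an HSP70 that male meiosis in mice depends on, was at 41.4, 45.5, 39.1, 39.0 and 47.6 TPM in 37C A to E and at 59.5, 114, 84.0, 82.1 and 88.9 TPM in 42C A to E. The groups did not overlap, and 42C A was again the lowest HS library. The log2 difference was 0.86 (SE 0.13, 95% interval 0.57 to 1.15, limma adjusted p = 0.000211), also under the fold threshold.

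**Figure D2:**
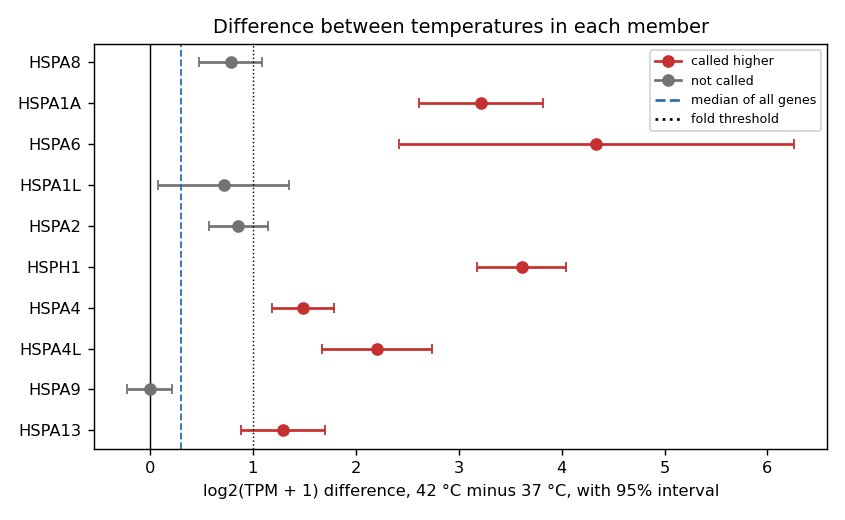
Difference between temperatures in each member on the log2(TPM + 1) scale, 42 °C minus 37 °C, as the limma estimate with its 95% interval, with called members in red, a dashed line at the median of all genes (0.30) and a dotted line at the fold threshold of 1. HSPA6 has the largest estimate (4.34) and the widest interval (2.42 to 6.26), and HSPA9 lies at 0 on these values and at -0.35 under median-ratio scaling.

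The HSP110-type members, which act as exchange factors of HSP70 and hold unfolded proteins themselves, all rose. HSPH1 (ENSBTAG00000005012), the heat-inducible HSP105, was at 35.3, 32.1, 41.2, 29.1 and 41.4 TPM in 37C A to E. In 42C A to E it was at 274, 579, 492, 546 and 533 TPM. The lowest HS library was 6.60 times the highest thermoneutral one, the widest gap between the groups in the family. HSPH1 went from 35.8 ± 5.46 TPM (SD, n = 5) to 461 ± 127 TPM (SD, n = 4), a ratio of 12.9, and the log2 difference of 3.61 (SE 0.198, 95% interval 3.18 to 4.05, limma adjusted p = 1.69e-06) was the 10th largest of all genes. Its rank by level moved from 3494 to 4639 at 37 °C to 558 in 42C A and to 256 to 307 in the other HS libraries.

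HSPA4 (ENSBTAG00000015683), the constitutive relative also known as APG-2, was at 111, 106, 131, 106 and 124 TPM in 37C A to E and at 241, 209, 351, 394 and 333 TPM in 42C A to E. The groups did not overlap, and the lowest HS library was here 42C B, the one left out of the test. The log2 difference was 1.49 (SE 0.139, 95% interval 1.18 to 1.79, limma adjusted p = 2.15e-05). HSPA4L (ENSBTAG00000015692), the related APG-1, was low, with 0.607, 0.807, 1.26, 1.498 and 1.15 TPM in 37C A to E and 4.71, 10.01, 8.34, 10.9 and 11.3 TPM in 42C A to E. Its groups did not overlap either, and the log2 difference of 2.21 (SE 0.244, 95% interval 1.67 to 2.74, limma adjusted p = 4.22e-05) depended in size on the pseudocount, being 1.16 with 5 and 2.92 with 0.1.

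HSPH1 and HSPA4 changed places within this subfamily. HSPA4 made up 74.4 to 77.6% of the summed TPM of HSPH1, HSPA4 and HSPA4L at 37 °C and 26.2 to 46.4% at 42 °C, while HSPH1 went from 21.3 to 24.9% to 52.7 to 72.6%. The sum itself was 136 to 173 TPM at 37 °C and 519, 798, 851, 952 and 877 TPM in 42C A to E. Set against the cytosolic chaperones that these factors serve, HSPH1 was at 1.23 to 1.54% of the sum of HSPA1A and HSPA8 at 37 °C and at 4.90 to 6.21% at 42 °C, the ranges not overlapping.

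The organelle members differed from each other. HSPA9 (ENSBTAG00000011419), mortalin, which pulls proteins into mitochondria and folds them there, was at 252, 233, 295, 265 and 249 TPM in 37C A to E and at 272, 175, 259, 275 and 227 TPM in 42C A to E. The groups overlapped, with 42C B and E below every 37 °C library. The means were 259 ± 23.1 TPM (SD, n = 5) and 258 ± 22.1 TPM (SD, n = 4), and the log2 difference had an interval of -0.22 to 0.21 (limma adjusted p = 0.987). Under median-ratio scaling, which sets the median difference of all genes to near 0, it was -0.35 (limma adjusted p = 0.0157, the range over 20 alternatives being 0.0157 to 0.989).

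HSPA13 (ENSBTAG00000012908), an HSP70 of microsomes that lacks the peptide-binding domain, was at 12.2, 14.8, 15.2, 20.8 and 20.8 TPM in 37C A to E. In 42C A to E it was at 31.1, 33.4, 42.6, 44.0 and 51.7 TPM. The groups did not overlap, and the spread within each was similar, the highest library holding 1.71 times the lowest at 37 °C and 1.66 times at 42 °C. The log2 difference was 1.29 (SE 0.187, 95% interval 0.88 to 1.70, limma adjusted p = 0.000161), but it was 0.96 under median-ratio scaling and 0.98 under quantile normalization, where HSPA13 was not called. The median difference of all genes was -0.01 and 0.07 under these scalings. Relative to the median of all genes on the values as deposited, the differences were 4.03 for HSPA6, 3.31 for HSPH1, 2.92 for HSPA1A, 1.90 for HSPA4L, 1.18 for HSPA4, 0.99 for HSPA13, 0.56 for HSPA2, 0.48 for HSPA8, 0.41 for HSPA1L and -0.31 for HSPA9.

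The order of the members by mean level at 37 °C was HSPA8, HSPA1A, HSPA9, HSPA4, HSPA2, HSPH1, HSPA13, HSPA6, HSPA1L and HSPA4L. Neighbours in this order were separate in every library from HSPA8 down to HSPA2 and again between HSPH1, HSPA13 and HSPA6, whereas the ranges of HSPA2 and HSPH1, of HSPA6 and HSPA1L, and of HSPA1L and HSPA4L overlapped. At 42 °C the order over all 5 libraries was HSPA1A, HSPA8, HSPH1, HSPA4, HSPA9, HSPA6, HSPA2, HSPA13, HSPA4L and HSPA1L. HSPA1A and HSPA8 overlapped there, HSPA1A being above HSPA8 in 4 of 5 libraries and below it in 42C A. HSPH1 to HSPA2 each overlapped with their neighbour, although HSPH1 was above HSPA4 in all 5 libraries, and HSPA2, HSPA13, HSPA4L and HSPA1L were separate.

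The summed level of the 10 members was 2599 to 3212 TPM at 37 °C, or 0.260 to 0.321% of the library. It was 5366 TPM in 42C A, 13456 in B, 10552 in C, 10242 in D and 10655 in E, or 0.537 to 1.35% of the library, with no overlap between the groups. HSPA8 made up 66.9 to 71.1% of the sum at 37 °C and 32.9 to 49.4% at 42 °C, and HSPA1A 12.6 to 16.2% and 34.1 to 54.5%. Together the pair held 83.2 to 84.7% of the sum at 37 °C and 83.5 to 87.8% at 42 °C, so that mainly their balance moved. The ratio of HSPA1A to HSPA8 was 0.178 to 0.243 at 37 °C and 0.691, 1.63, 1.43, 1.10 and 1.60 in 42C A to E. Of the difference of 6272 TPM between the mean sums of the libraries in the test, HSPA1A made up 62.8%, HSPA8 24.0%, HSPH1 6.78%, HSPA4 3.42% and HSPA6 1.94%. HSPA6, first by log2 difference, was therefore the 5th by added transcripts over these libraries, and HSPA8, which was not called, came after HSPA1A. The place of HSPA6 rests on leaving out 42C B, where HSPA6 was at 512 TPM and HSPA4 at 209 TPM.

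**Figure D3:**
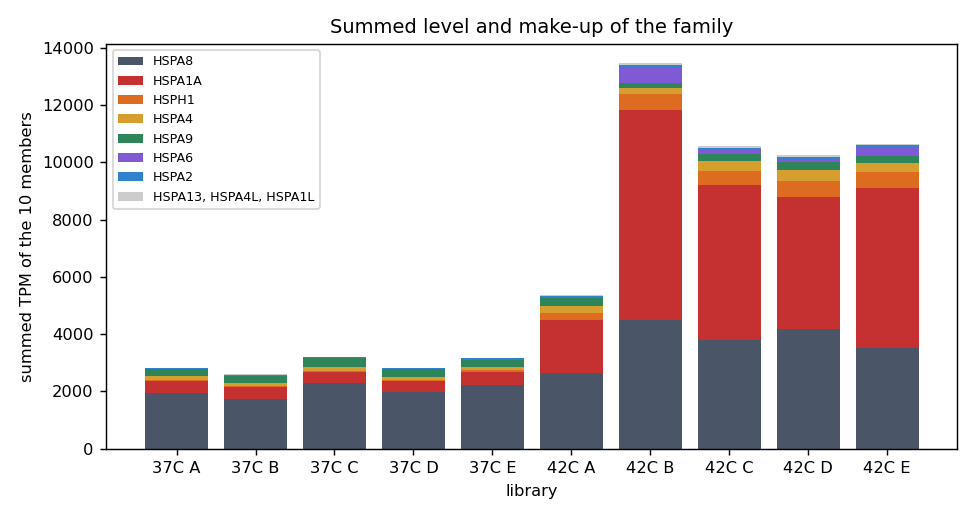
Summed TPM of the 10 members in each library as stacked bars from 0, coloured by member. The bars stand between 2599 and 3212 TPM at 37 °C and mostly hold HSPA8, and at 42 °C they range from 5366 TPM in 42C A to 13456 TPM in 42C B, with HSPA1A as 34.1 to 54.5% of the bar.

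Since the same oviducts were used at both temperatures, and the letters were taken to mark them, the fold of 42 °C over 37 °C was also taken within each letter. It was above 1 in all 5 letters for 9 of 10 members, where this held for 31.1% of all genes tested, and in 2 of 5 letters, A and D, for HSPA9. For HSPA1A the fold was 4.14 in A, 17.4 in B, 13.3 in C, 11.5 in D and 11.8 in E. For HSPH1 it was 7.76, 18.04, 12.0, 18.8 and 12.9 in the same order, and for HSPA6 it was 1.69, 220, 131, 36.5 and 98.1. Letter A was the lowest of the 5 in all 3 genes.

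Other members shared that order of the letters only in part, with A lowest in HSPA8 and HSPA2. The fold of HSPA8 was 1.37, 2.58, 1.66, 2.13 and 1.58 in A to E, and that of HSPA2 1.44, 2.50, 2.15, 2.10 and 1.87. HSPA4 had 2.17, 1.97, 2.68, 3.73 and 2.69, with B lowest and D highest. HSPA13 had folds between 2.11 and 2.81, the narrowest range of the called members, and HSPA4L had 7.77 in A, within the 6.62 to 12.4 of the other letters. Over the 10 members the smallest fold fell in letter A in 6 and the largest in letter B in 5. The shares of all genes with these extremes were not counted, so no comparison with other genes can be drawn.

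**Figure D4:**
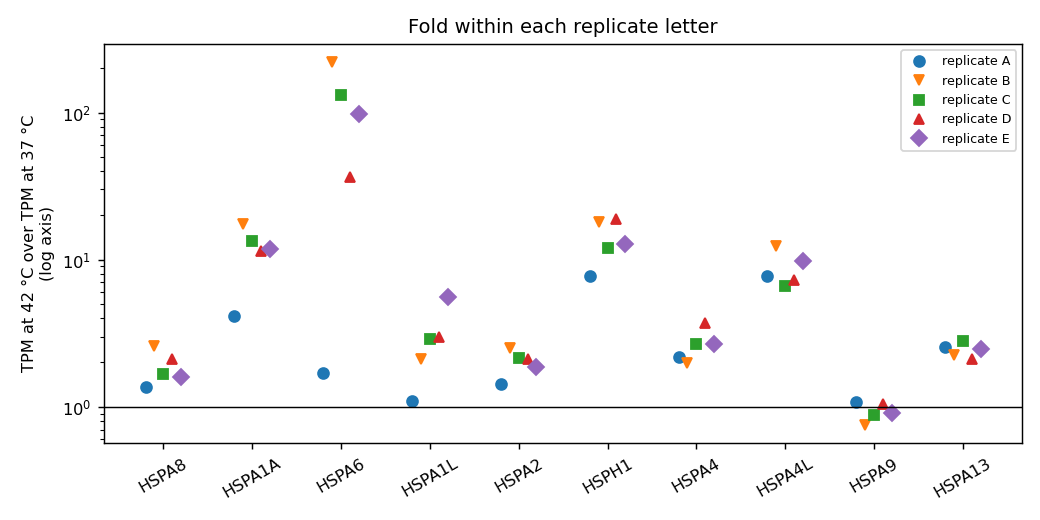
TPM at 42 °C over TPM at 37 °C within each replicate letter, on a log axis, with a line at 1. Letter A has the lowest point in 6 of 10 members, with 1.69 against 36.5 to 220 for HSPA6, while the points of HSPA13 lie between 2.11 and 2.81 and those of HSPA9 on both sides of 1.

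Library 42C A was the lowest HS library in 8 of 10 members, the exceptions being HSPA4 and HSPA9, which were lowest in 42C B. How many of all genes were lowest in 42C A was not counted, so the members cannot be set against other genes in this. As a share of the mean of 42C C, D and E, 42C A held 2.65% for HSPA6, 35.1% for HSPA1A, 46.2% for HSPA4L, 52.2% for HSPH1, 67.0% for HSPA4, 67.4% for HSPA13, 69.2% for HSPA8, 70.0% for HSPA2 and 107% for HSPA9. By this share of level HSPA6, HSPA1A, HSPA4L and HSPH1 stood further below than HSPA8, HSPA4 and HSPA2 did, and HSPA1L, at 39.7%, was low throughout. The rise of 42C A over the mean of all 37 °C libraries gave another order. It was taken as a share of the rise of the mean of 42C C, D and E over that same 37 °C mean, not within letters. It was 1.31% for HSPA6, 5.53% for HSPA1L, 29.3% for HSPA1A and 34.5% for HSPA8. HSPA2 and HSPA4L were at 40.0%, HSPH1 at 48.7%, HSPA13 at 48.9% and HSPA4 at 51.4%. HSPA8 and HSPA2 thus fell shorter than HSPH1 by this measure. This library also lay between the temperatures on the first principal component and had the highest summed epithelial markers of the HS group through its keratins, with KRT19 at 3213 TPM against 1323 to 1554 TPM in the other HS libraries. It was the lowest HS library for CLDN4 (205 TPM) and below 42C C, D and E for EPCAM (827 TPM). The part of these differences in its chaperone levels was not tested.

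In library 42C B 9 of 10 members were above every 37 °C library and 1, HSPA9, was below, where 29.4% of all genes tested were above and 52.0% below. It was the highest HS library in 5 members, at 312% of the mean of C, D and E for HSPA6, 141% for HSPA1A, 134% for HSPA2, 117% for HSPA8 and 111% for HSPH1. It was at 58.1% for HSPA4, 69.0% for HSPA9 and 72.4% for HSPA13. How many of all genes were highest in 42C B among the HS libraries was not counted. With 42C B in the fit the same 6 members were called, and the differences were 3.39 for HSPA1A, 4.94 for HSPA6, 3.69 for HSPH1, 1.36 for HSPA4, 2.25 for HSPA4L and 1.23 for HSPA13.

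The genes that work with the family were read from 5 lists of 48 genes in all, of which 43 were in the table and 39 passed the filter. At 42 °C 14 of the 39 were called higher and 0 lower, and 31 were higher and 2 lower by the adjusted p alone, where 15.8% of all genes tested were called higher, 7.14% lower, and 45.1% were higher by p. The median difference of the 39 was 0.75 on the log2 scale, against 0.30 for all genes. The 2 that were lower by p alone were DNAJB13, a J-domain protein of sperm and cilia (-0.88), and GRPEL2, a mitochondrial exchange factor (-0.45), both under the fold threshold.

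Among J-domain co-chaperones of types A and B, 6 of 14 tested genes were called higher and 0 lower. DNAJA4 rose by 2.38 (adjusted p = 3.36e-05, limma), DNAJB1, the main heat-inducible partner of HSP70, by 2.32 (adjusted p = 2.50e-05), DNAJB4 by 2.25 (adjusted p = 3.25e-05) and DNAJA1 by 1.75 (adjusted p = 5.50e-06). DNAJB1 was at 74.3 to 90.6 TPM at 37 °C and at 219, 461, 478, 493 and 536 TPM in 42C A to E, with 42C A again lowest. DNAJA1, the more abundant of them at 264 ± 29.3 TPM at 37 °C (SD, n = 5), reached 894 ± 121 TPM at 42 °C (SD, n = 4). The other called genes of the list were DNAJB5 and DNAJB2.

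Of 8 exchange factors outside the HSP110 proteins, 2 were called higher and 0 lower, near the 15.8% of all genes. BAG3, which links HSP70 to selective autophagy, rose by 2.42 (adjusted p = 1.48e-05, limma), from 83.7 ± 9.34 TPM (SD, n = 5) to 468 ± 136 TPM (SD, n = 4), and stood at 265 TPM in 42C A and 648 TPM in 42C B. BAG2, which holds back the ubiquitin ligase CHIP, rose by 1.14 (adjusted p = 3.18e-05, limma), but 42C B was at 15.9 TPM, below the 37 °C mean of 18.6 ± 1.95 TPM (SD, n = 5). With 42C B in the fit the difference of BAG2 was 0.87 and it was not called.

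HSP90 and the proteins that link it to HSP70 gave 5 called of 10 tested, all higher. HSP90AA1, the inducible HSP90, rose by 1.90 (adjusted p = 8.09e-07, limma), from 488 ± 16.5 TPM (SD, n = 5) to 1837 ± 183 TPM (SD, n = 4). CHORDC1, FKBP4 and AHSA1, which act with HSP90, rose by 1.44, 1.33 and 1.25 (adjusted p = 2.15e-05, 2.51e-05 and 5.51e-05, limma). STIP1, the adaptor HOP that joins HSP70 to HSP90, was the fifth, and with 42C B in the fit its difference was 0.98 and it was not called. Under median-ratio scaling STIP1, FKBP4, AHSA1, BAG2 and DNAJB2 were not called, with differences of 0.71 to 0.98.

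Of the other HSP70 family genes 5 were tested and 1 was called, also near the share of all genes. This was HSPA12A, a distant HSP70 relative, which rose by 2.34 (adjusted p = 5.88e-06, limma) from 8.41 ± 2.12 TPM (SD, n = 5) to 45.7 ± 3.82 TPM (SD, n = 4). HSPA5 and HYOU1, the HSP70 and the HSP110-type protein of the endoplasmic reticulum, were named after their values were seen. HSPA5 went from 884 ± 50.7 TPM (SD, n = 5) to 1271 ± 105 TPM (SD, n = 4), a difference of 0.52, and HYOU1 had a difference of 0.83, neither reaching the fold threshold. In 42C B, however, HSPA5 was at 560 TPM, below every 37 °C library, whereas in HSPA8 the same library was the highest of all 10.

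Heat shock factors, the transcription factors that bind the promoters of heat-inducible chaperone genes, gave 0 calls of 2 tested by limma, with 1 passing the p threshold both unadjusted and adjusted. HSF1 averaged 62.3 ± 4.64 TPM in the thermoneutral group (SD, n = 5) and 60.0 ± 2.85 TPM in the HS group (SD, n = 4), a difference of -0.05 (adjusted p = 0.654, limma). HSF2 had a difference of 0.75 (adjusted p = 0.00172, limma), under the fold threshold. Both were named after their values were seen, as the list held no called gene.

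**Figure D5:**
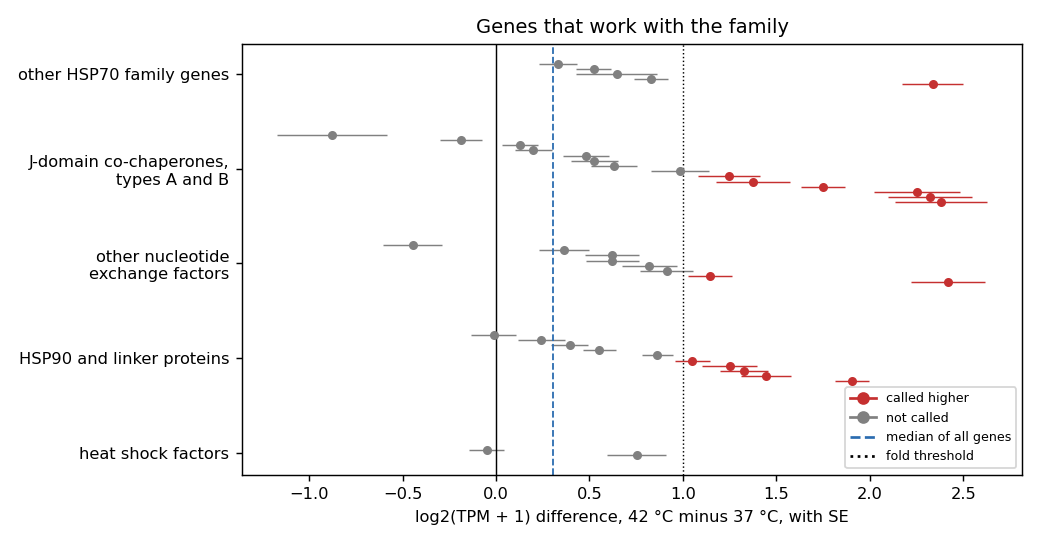
Differences of the 39 tested partner genes by list on the log2(TPM + 1) scale, 42 °C minus 37 °C, as points with the SE, called genes in red, with a dashed line at the median of all genes (0.30) and a dotted line at the fold threshold of 1. The 14 red points lie above 1, from 1.05 to 2.42, and the HSF1 point lies at -0.05.

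For each called member the gene outside the family with the most similar profile was sought among 9848 genes with a mean of at least 5 TPM, by Pearson's r of log2(TPM + 1) over the 10 libraries. These were SLX4 for HSPA1A (r = 0.998), AMMECR1L for HSPH1 (0.995), BMS1 for HSPA4 (0.994), ZNF106 for HSPA4L (0.994), PRKACB for HSPA13 (0.993) and KIAA1191 for HSPA6 (0.987). The 10 libraries share oviducts in pairs and fall into the temperature groups, so that r mostly reflects the difference between temperatures and is a description only. SLX4 was at 3.35 to 3.67 TPM at 37 °C and at 13.2, 34.2, 33.2, 29.3 and 31.4 TPM in 42C A to E, with 42C A lowest and 42C B highest, as for HSPA1A. KIAA1191 was at 34.8 to 42.5 TPM at 37 °C and at 48.7, 93.3, 70.2, 66.4 and 78.2 TPM in 42C A to E. It follows the order of the HS libraries of HSPA6, but its range there, 48.7 to 93.3 TPM, was far narrower.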

How the data were processed

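The authors deposited TPM values per gene for 10 libraries, 5 at 37 °C and 5 at 42 °C. According to the study's methods, paired reads were trimmed and mapped to ARS-UCD1.2 in CLC Genomics Workbench, and expression was normalized by TMM. Bowtie2 2.2.2, DESeq2 and bcl2fastq are named in the submitters' processing notes, with no steps. All 10 columns summed to 1000000 TPM, so that no scaling factor was left in them and depth is unknown. For the strand setting and for reads shared by near-identical genes, nothing is given in the sources used here.

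Columns were matched to samples by title. A gene was kept if 4 or more of the 9 libraries in the test held at least 1 TPM. Values were taken as log2(TPM + 1), a scale on which changes of low genes come out too small, and fitted with limma 3.58.1 in R 4.3.3 (eBayes with trend, two-sided) with Benjamini-Hochberg adjustment over 12149 genes. The count model of the study was not used, since the values are not counts. The fit was tested on simulated data. Principal components used all 10 libraries.

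All members were named. From each partner list up to 4 called genes with the largest difference were named, and for each called member the gene outside the family with the highest r. The members and lists were chosen with earlier results of these data known. Letters A to E were taken to mark the same oviducts at both temperatures. The deviations of same-letter libraries from their group means correlated at 0.125 (A), 0.238 (B), 0.369 (C), 0.273 (D) and 0.211 (E). For each letter this was above the highest correlation found with another letter, which for A was 0.0706. Alternatives covered the pseudocount, the filter, scaling, 42C B, the replicate block, the variance model and leaving out each library. RefSeq names (ARS-UCD2.0) matched all 10 members. No sequence was used.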

Additional observations from a re-analysis of the deposited data

Results flagged for a closer look

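HSPH1 in 42C A, at 273.6 TPM, stood apart from the other 4 HS libraries, which lay between 492 and 579 TPM. The gap to the nearest of them was 0.715 of the range of the group, just above the limit of 0.71 for 5 samples in Dixon's test. Of 30 groups of values looked at it was the only one past its limit, where chance passes about 1 in 20.

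Library 42C B was not part of the test, and in it 9 of 10 members were above every library at 37 °C, as were 29.4% of all genes tested. These were HSPA1A at 7333 TPM, HSPA8 at 4487, HSPH1 at 579, HSPA6 at 512, HSPA4 at 209, HSPA2 at 114, HSPA13 at 33.4, HSPA4L at 10.01 and HSPA1L at 4.29 TPM. HSPA9 was below every library at 37 °C, as were 52.0% of all genes tested.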

How the results depend on the processing

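Each member and partner was refitted under 20 alternatives. In 198 comparisons of members with the reported fit the call changed in 2, those of HSPA13 under median-ratio scaling (0.96) and quantile normalization (0.98). Short of the call, the adjusted p changed its side of the threshold in 12, of which 11 were of HSPA1L, whose difference reached 1.10 with a pseudocount of 0.1, and 1 was of HSPA9 under median-ratio scaling. The sign of HSPA9 changed in 3 (range -0.039 to 0.058 when each library was left out). Uncalled partners that changed sign were HSPA14 (-0.00015 with median-ratio scaling, -0.010 with quantile normalization), DNAJA2 (-0.21 with median-ratio scaling, -0.068 with all 10 libraries, with or without the replicate block), DNAJA3 (-0.14) and DNAJC7 (-0.10) with median-ratio scaling, and STUB1 (0.090 with array weights, and from -0.11 to 0.055 when each library was left out). HSPA1L and HSPA4L had no value under the filter on a mean of 5 TPM. The letters were taken to pair the samples. With a replicate block in the 9 libraries of the test no call of a member or partner changed, the differences being 3.58 for HSPH1 and 3.21 for HSPA1A. With the block and all 10 libraries no call of a member changed, but the partners BAG2 (0.87) and STIP1 (0.98) were not called. Over all genes the calls fell from 2782 to 1371 with a pseudocount of 5. Those higher fell from 1915 to 884 with it, to 921 with median-ratio scaling and to 981 with quantile normalization. Those lower went from 867 to 487 with a pseudocount of 5 and to 1433 with median-ratio scaling. The share of calls that were higher was 68.8% on the values as deposited, 39.1% with median-ratio scaling and 43.9% with quantile normalization. Partner genes called higher went from 14 to 9 with median-ratio scaling, since DNAJB2 (0.91), BAG2 (0.81), STIP1 (0.71), FKBP4 (0.98) and AHSA1 (0.91) fell under the fold threshold. DNAJB5 lost its call with a pseudocount of 5 (0.67) and BAG2 with quantile normalization (0.83). DNAJB14 gained a call with a pseudocount of 0.1 (1.055), with array weights (1.02) and without 37C A (1.03), 37C E (1.02) or 42C A (1.10). BAG4 gained one with array weights (1.02) and without 42C A (1.03). Partner genes called lower went from 0 to 1 (DNAJB13) with a pseudocount of 0.1 and with median-ratio scaling, and ranged from 0 to 1 when each library was left out, with 1 without 37C A. The members called higher numbered 6 without any 1 library. Low TPM values limit HSPA1L, HSPA4L and HSPA6 at 37 °C, where the read number is unknown.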

Other observations

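In 42C B, the library left out of the test, the 39 partner genes did not move as a block. There 24 were above every 37 °C library (29.4% of all genes tested were), among them HSP90AA1 at 2919 TPM, HSP90AB1 at 4204 TPM and BAG3 at 648 TPM, which all exceeded the other 4 HS libraries. Another 9 were below every 37 °C library (52.0% of all genes tested were), among them HSPA5 at 560 TPM and HYOU1 at 40.7 TPM, which act in the endoplasmic reticulum, SIL1, the exchange factor of HSPA5, at 24.9 TPM, and the factors HSF1 at 39.2 TPM and HSF2 at 6.22 TPM. In 42C A, C, D and E, by contrast, HSPA5 ranged from 1131 to 1386 TPM, HYOU1 from 90.3 to 101 TPM and SIL1 from 34.1 to 54.6 TPM, above every 37 °C library. The J-domain genes DNAJB9 and DNAJB11 were not below every 37 °C library in 42C B. DNAJB9, at 32.2 TPM, was above the 37 °C range of 25.5 to 31.8 TPM. DNAJB11, at 81.9 TPM, lay within its range of 57.0 to 84.0 TPM. Both were lowest in 42C B among the HS libraries. These genes were chosen after their values were seen, and the difference between 42C B and the other libraries, being 1 library, was not tested.

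Of the 14 partner genes called higher, 10 were lowest in 42C A among the 4 HS libraries in the test. The exceptions were HSPA12A, DNAJB5, BAG2 and STIP1. For all genes called higher the share lowest in 42C A was not counted, so the 10 are a description only. BAG2 was highest in 42C A, at 46.9 TPM against 38.8 to 43.1 TPM in C, D and E.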
